A study of Mus musculus with 21 samples.

Results

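The cadherin superfamily was compared between the newborn mouse subcommissural organ (SCO), a small gland of secretory ependyma at the dorsal midline of the brain, and the hippocampus. Its members were the protein-coding genes named Cdh with a number, Pcdh, Celsr, Fat, Dchs or Clstn, 102 of the 31883 genes in the deposited table. They fall into 22 Cdh genes, 56 clustered protocadherins, 12 non-clustered protocadherins and 12 Celsr, Fat, Dchs and Clstn genes. The samples were 4 of SCO and 5 of hippocampus, all from C57BL/6 mice on postnatal day 0 (P0), with no treatment or allele named in the labels. A further 12 samples of postnatal day 60, 6 of SCO and 6 of hippocampus, were not analysed here. Nothing in the labels says that these are separate animals, and p-values then reflect only sample-to-sample spread, which may be technical.

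Cadherins are membrane proteins that hold cells together through calcium-binding extracellular repeats. Classical cadherins, of type I and type II, bind their like on neighbouring cells and are anchored to actin through catenins, whereas protocadherins do not use this anchor and act in recognition between neurons. The alpha, beta and gamma protocadherins stand in tandem arrays from which single neurons choose a few promoters, and Celsr, Fat and Dachsous proteins carry planar cell polarity. In the hippocampus, cadherins are known for their part in synapse formation, and in ependyma for junctions between cells.

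Values are normalized counts, that is, reads of a gene scaled by 1 size factor for each library. Recovered counts summed over all gene rows came to 35379988 to 64242533 per library in SCO and 36787949 to 151009954 in hippocampus. By these sums the deepest were hippocampus replicates 4 and 5. Reads that fall in overlapping genes count more than once in them. Of 7 SCO markers, 5 rose, with a summed level of 25081 to 53366 normalized counts in SCO and 918 to 3009 in hippocampus. Of 12 markers of hippocampal and cortical excitatory neurons, 10 fell, with sums of 6429 to 10489 in SCO and 121692 to 157056 in hippocampus. Of 10 interneuron markers, 4 fell (Lhx6, Dlx1, Dlx2 and Dlx5) and 1, Calb2, rose. Dlx1, Dlx2 and Dlx6 were at 0 in all SCO libraries, and the sums of the list were 26875 to 77498 in SCO and 31267 to 48961 in hippocampus. Of 10 endothelium and blood markers, 4 rose (Eng, Hbb-bs, Hba-a1 and Alas2), with sums of 51570 to 79405 in SCO and 12631 to 27172 in hippocampus. Of 12 radial glia and astrocyte markers, Vim and Ttyh1 rose and Slc1a2 fell, with sums of 151714 to 304896 in SCO and 141358 to 186595 in hippocampus. Of 8 microglia markers, Ctss rose, with sums of 26957 to 35234 in SCO and 11948 to 19115 in hippocampus. In this list 7 had an unadjusted p under 0.05 in limma, edgeR called 1 and DESeq2 5, and the median log2 fold change was 1.36. Choroid plexus markers rose for 3 of 11 tested (Abca4, Calml4 and Otx2), and Otx2 is also among the SCO markers counted above as rising. SCO replicate 4 stood apart in their sum, at 193880 against 17985 to 21482 in the other SCO libraries and 380 to 14809 in hippocampus, where 1 of these 12 markers, Kcnj13, was at 0; another, Kl, was at 0 in SCO. Of the sum in SCO replicate 4, Ttr alone gave 171311, against 108 to 560 in the other SCO libraries, while Calml4 was at 5219, below its 6718 to 9901 in those libraries, and Otx2 at 8084, within their 7705 to 8708. No marker of meninges and fibroblasts (11 tested) or of the oligodendrocyte lineage (8 tested) was called by limma, edgeR or DESeq2, with 0 of the meningeal and 3 of the oligodendrocyte markers at an unadjusted p under 0.05 in limma. Their sums were 7376 to 17525 in SCO and 3523 to 15603 in hippocampus for meninges, and 4437 to 9987 in SCO and 1606 to 6217 in hippocampus for the oligodendrocyte lineage. In bulk tissue, fewer cells of a type and less RNA per cell cannot be told apart.

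Of the 102 members, 101 passed the filter on low values (at least 1 normalized count on average in 1 of the tissues), and Fat2 did not. At a limma adjusted p under 0.05, 3 members rose in SCO (Cdh26, Pcdh11x and Cdh20) and 2 fell (Cdh9 and Clstn2), which is 4.95% of the members tested. Over all 28150 genes tested, 859 were called, a share of 3.05%, made up of 1.71% higher and 1.34% lower in SCO. The libraries of the tissues did not overlap for 7 members, 6.93% of those tested, beside 8.53% of all genes. The median log2 fold change, SCO minus hippocampus, was -0.06 over the members and -0.04 over all genes. At an unadjusted p under 0.05 in limma there were 15 of 101 members, beside 4354 of all 28150 genes. The edgeR quasi-likelihood test on recovered reads called 5 members, beside 709 of all genes, and DESeq2 called 10, beside 2737. In the authors' deposited table, 7 members were higher and 3 lower at an adjusted p under 0.05, or 10.6% of the 94 members with a value, beside 12.7% of all genes there.

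**Figure D1:**
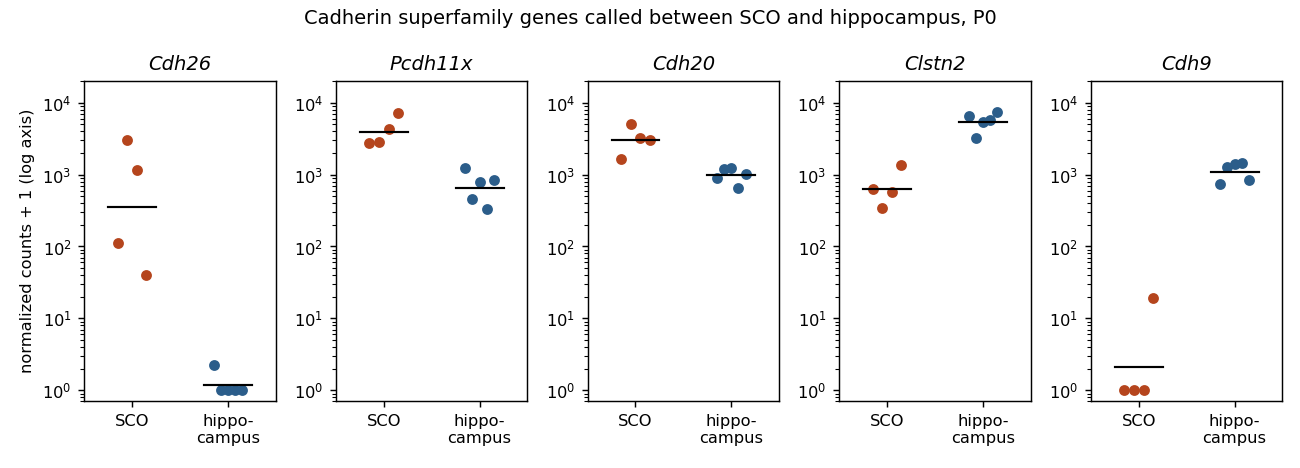
Normalized counts plus 1 (log axis) of the 5 members called between tissues, 1 point per library, with 4 SCO libraries left of 5 hippocampus libraries in each panel. Horizontal lines are means of log2(value + 1). No panel shows an overlap, and Cdh26 and Cdh9 each lie at or near 0 reads in 1 tissue.

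Among the Cdh genes, 2 of 22 rose and 1 fell. Cdh26, an atypical cadherin described in human epithelia (chromosome 2, 178430531 to 178487366 on the plus strand, GRCm38), had 112, 3065, 1156 and 39.2 normalized counts in SCO replicates 1 to 4. In hippocampus it had 1.25, 0, 0, 0 and 0, which is 1 read over 5 libraries. All SCO libraries lay above all hippocampus libraries, and the SCO libraries themselves spread widely, with replicate 4 lowest. Its log2 fold change on the log2(value + 1) scale was 8.24 (SE 1.36; adjusted p = 0.00978 by limma). The ratio of the mean in SCO to that in hippocampus was 4378, with an exact Poisson 95% interval of 786 to 172932 that covers counting error only. The call ended when the 2 deepest hippocampus libraries were left out (adjusted p = 0.0593 by limma), within a range of 8.92e-13 to 0.138 over 21 alternatives. Markers of motile cilia and ependyma moved the same way, 7 of 12 rising, with sums of 32936 to 51448 in SCO and 7755 to 9860 in hippocampus. The choroid plexus, endothelium and blood, radial glia and microglia markers that rose are given above. The part of these cell types in the result was not tested.

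Cdh9 showed the opposite pattern. This type II cadherin, known from synapses of the mossy fibre pathway onto CA3 neurons, lies on chromosome 15, 16728756 to 16857094, plus strand. It had 0, 0, 0 and 17.9 normalized counts in SCO, against 737, 1279, 1420, 1447 and 839 in hippocampus. SCO replicate 4 held all of the SCO reads. The gene fell by 9.05 on the log2 scale (SE 1.03; adjusted p = 0.00123 by limma), and its mean was 256 times as high in hippocampus. A gene model inside its span, Gm49127, held 11.9% to 47.9% of its counts in hippocampus. With those reads removed, the log2 fold change was -8.48 (SE 1.06; adjusted p = 0.00208 by limma). Cdh9 fell along with the excitatory neuron markers given above and with 4 of the 10 interneuron markers. Like Cdh9, the excitatory markers Tbr1, Bhlhe22 and Fezf2 had SCO reads in replicate 4 alone, at 12.3, 1.12 and 332 normalized counts. The rest of that list had reads in other SCO libraries as well. The part of either list was not tested.

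Because Cdh26 and Cdh9 were each nearly silent in 1 tissue, the reference sequence around their RefSeq start sites is shown, from 250 bases before the start to 50 after it (GRCm38.p6). The spans given above come from another annotation, GENCODE M21, and begin at other bases. The Cdh9 span begins at 16728756, inside the window and before the RefSeq start. Distances below are from the RefSeq start. Capitals mark TAATCC or its complement GGATTA, the core letters of OTX-type homeodomain sites, and CANNTG, the E-box. Both motifs were chosen with results of these data known.
Cdh26, chr2:178430265-178430564, plus strand: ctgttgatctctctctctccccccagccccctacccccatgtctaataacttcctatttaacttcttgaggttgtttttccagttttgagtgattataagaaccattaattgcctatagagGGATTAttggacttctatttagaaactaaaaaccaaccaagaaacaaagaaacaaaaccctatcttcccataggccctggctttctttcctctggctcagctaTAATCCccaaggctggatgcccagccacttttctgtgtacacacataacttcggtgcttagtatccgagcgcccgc
Cdh9, chr15:16728665-16728964, plus strand: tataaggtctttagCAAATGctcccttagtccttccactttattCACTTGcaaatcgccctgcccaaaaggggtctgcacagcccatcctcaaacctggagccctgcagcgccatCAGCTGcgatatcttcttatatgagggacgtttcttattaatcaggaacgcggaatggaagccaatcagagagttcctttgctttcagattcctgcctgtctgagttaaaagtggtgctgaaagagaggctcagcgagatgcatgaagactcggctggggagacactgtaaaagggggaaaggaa
The Cdh26 window holds TAATCC letters at 2 places, the first base of one 129 and of the other 26 bases before the start, and no CANNTG. The Cdh9 window holds 3 CANNTG matches and no TAATCC. Of the other called members with a window, Cdh20, also higher in SCO, has no TAATCC and 1 CANNTG, and Clstn2, also lower in SCO, has neither, so genes called in the same direction do not share these letters. Over 32851 windows of the same length, 7.06% hold TAATCC on either strand and 72.3% hold CANNTG. A match is a run of letters and does not show binding.

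Cdh20, a type II cadherin (chromosome 1, 104768529 to 104995481, plus strand), had 1650, 5080, 3231 and 2993 normalized counts in SCO and 886, 1205, 1253, 645 and 1014 in hippocampus. The tissues did not overlap, SCO replicate 1 being nearest to hippocampus. Its mean was 3.24 times as high in SCO, with a log2 fold change of 1.62 (SE 0.38; adjusted p = 0.0461 by limma). That call rested on the full set: it ended when any single library was left out except SCO replicate 1 or hippocampus replicate 2, with adjusted p-values from 0.000102 to 0.18 over 21 alternatives. Markers of habenular, thalamic and pretectal neurons, which lie close to the SCO, rose for 5 of 12, with sums of 50457 to 87206 in SCO and 4636 to 5710 in hippocampus, where Gbx2 was at 0. The part of these and of the other marker lists that rose in the result for Cdh20 was not tested.

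The other 11 type II cadherins were not called. Cdh18 came nearest, with 233, 924, 713 and 767 normalized counts in SCO and 120, 391, 224, 31.4 and 57.8 in hippocampus (log2 fold change 2.35 with an SE of 0.82; adjusted p = 0.178 by limma), and its ranges overlapped. Cdh11, a mesenchymal and neural cadherin, averaged 7107 ± 2080 in SCO (SD, n = 4) and 4863 ± 1232 in hippocampus (SD, n = 5). Cdh8 averaged 7531 ± 3212 in SCO and 6348 ± 2436 in hippocampus (SD, same n). These were the type II genes with the most counts, and neither was called, with limma adjusted p-values of 0.416 for Cdh11 and 0.802 for Cdh8. Cdh10, a close relative of Cdh9, averaged 3590 ± 478 in SCO and 6265 ± 2547 in hippocampus (SD, n = 4 and 5), a log2 fold change of -0.71 (limma adjusted p = 0.316). Cdh6 and Cdh12 had log2 fold changes of 0.57 and -0.17 and also overlapped. Cdh7, Cdh22 and Cdh24 varied more between libraries, at log2 fold changes of 2.74 (SE 1.38), 3.74 (SE 1.96) and 2.17 (SE 1.83). Each of these had at least 1 SCO library inside the hippocampus range. Cdh5, the endothelial cadherin, was at 306 in SCO replicate 1 and between 2.95 and 4.48 in the other SCO libraries, against 2.50 to 163 in hippocampus. Cdh18, Cdh10 and Cdh5, and other uncalled members given with values, were in part picked for mention after their values were seen.

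Type I cadherins gave no call among 5 tested, and by edgeR none either, while DESeq2 called 1. Cdh2, N-cadherin, the main classical cadherin of neural tissue, had 4143, 3449, 1389 and 5702 normalized counts in SCO and 5791, 2689, 3669, 3800 and 7164 in hippocampus (log2 fold change -0.41 with an SE of 0.43; adjusted p = 0.658 by limma). Cdh4, R-cadherin, had 1993, 2999, 2779 and 1634 in SCO and 2828, 1167, 1162, 1339 and 2017 in hippocampus (0.52, SE 0.36; adjusted p = 0.550 by limma). Both were present in every library of either tissue with wide overlap. The epithelial cadherins differed between SCO libraries. Cdh1, E-cadherin, had 5.97, 1014, 0 and 0 normalized counts in SCO and at most 5.12 in hippocampus. Cdh3, P-cadherin, had 0, 0, 1277 and 402 in SCO and at most 1.03 in hippocampus, where it had 3 reads in all. With 2 of 4 SCO libraries at 0, Cdh3 was not called by limma (log2 fold change 4.38 with an SE of 2.13, adjusted p = 0.361), whereas the authors' deposited table gives it a log2 fold change of 10.15 with an adjusted p of 0.000450. Cdh15, M-cadherin of muscle, was at 2.95 in SCO replicate 2 and 186 to 209 in the other SCO libraries, against 8.74 to 1123 in hippocampus, but its span lies inside that of Gm20388, so its reads cannot be told apart from that model's.

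Of the remaining Cdh genes, Cdh13, the GPI-anchored T-cadherin, had 14508, 13734, 18158 and 22934 normalized counts in SCO and 6097, 7060, 9572, 15785 and 7782 in hippocampus. Hippocampus replicate 4 reached into the SCO range, and the log2 fold change of 0.96 (SE 0.29) had a limma adjusted p of 0.116, or 0.0400 without that library (0.0400 to 0.287 over 21 alternatives). Cdh17, the liver-intestine cadherin, had 0 reads in all 4 SCO libraries and 187 normalized counts in hippocampus replicate 1, with 0 in the other 4 hippocampus libraries. Its hippocampus mean of 37.5 was at least 9.98 times the SCO level allowed by 3 reads per library, a bound that rests on 1 library and covers counting error only. Cdh19, a type II cadherin of glia, likewise held 274 in hippocampus replicate 4 and at most 0.913 elsewhere.

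Cdh23, the cadherin of hair-cell tip links (chromosome 10, 60302748 to 60696490, minus strand), lay just outside the threshold. It had 3763, 2621, 4280 and 2750 normalized counts in SCO and 419, 1611, 867, 1049 and 1405 in hippocampus, with no overlap (log2 fold change 1.76 with an SE of 0.41; adjusted p = 0.0503 by limma). Without hippocampus replicate 2 it was called, and its adjusted p ranged from 0.000885 to 0.227 over 21 alternatives. Most of these counts lie in 2 genes inside its span on the opposite strand, Vsir and Gm17455, which together held 68.9% to 96.9% of its counts in SCO and 87.7% to 100% in hippocampus. The rest of the span held 1171, 81.2, 500 and 357 normalized counts in SCO and 2.50, 127, 0, 129 and 6.85 in hippocampus, so that SCO replicate 2 fell inside the hippocampus range. On these remaining reads the log2 fold change was 4.74 (SE 1.59; adjusted p = 0.160 by limma), and which part of the row comes from Cdh23 transcripts cannot be settled from gene totals.

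**Figure D2:**
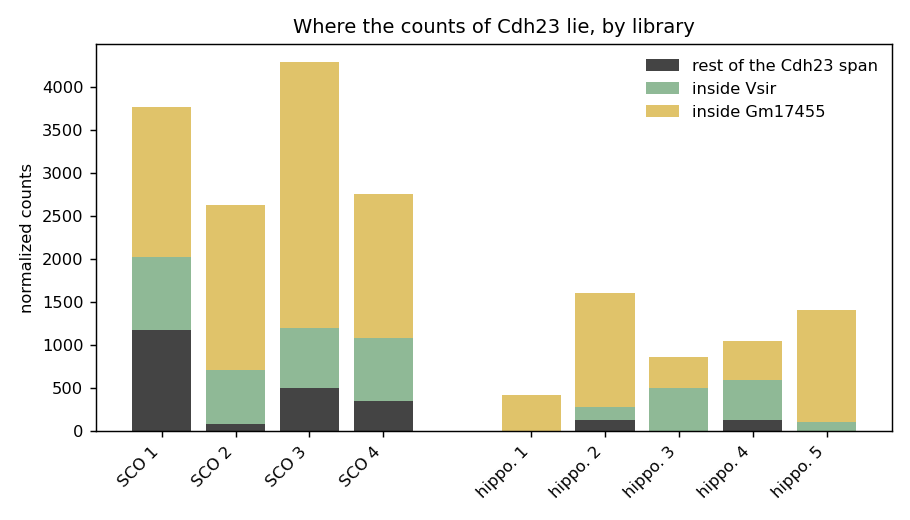
Normalized counts of the Cdh23 row in each of 4 SCO and 5 hippocampus libraries, stacked by whether they lie inside Gm17455, inside Vsir or in the rest of the span. The rest is highest in SCO replicate 1, at 1171, and is 0 in hippocampus replicate 3.

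This counting over gene spans holds for the whole table. In each of 2070 same-strand and 2407 opposite-strand pairs of a gene lying inside another, for nested genes with at least 90 reads in all, the host had at least the nested gene's reads in all 9 libraries. A second fit was therefore made with the reads of nested genes taken off the members that host them, and each alpha and gamma row reduced by the next. Rows outside the cadherin superfamily were left as deposited, so the 859 genes (3.05%) it called are no check of the rest of the table. Among the members it again called 3 higher and 2 lower. Clstn2 then had a log2 fold change of -3.33 and Cdh20 one of 1.64.

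**Figure D3:**
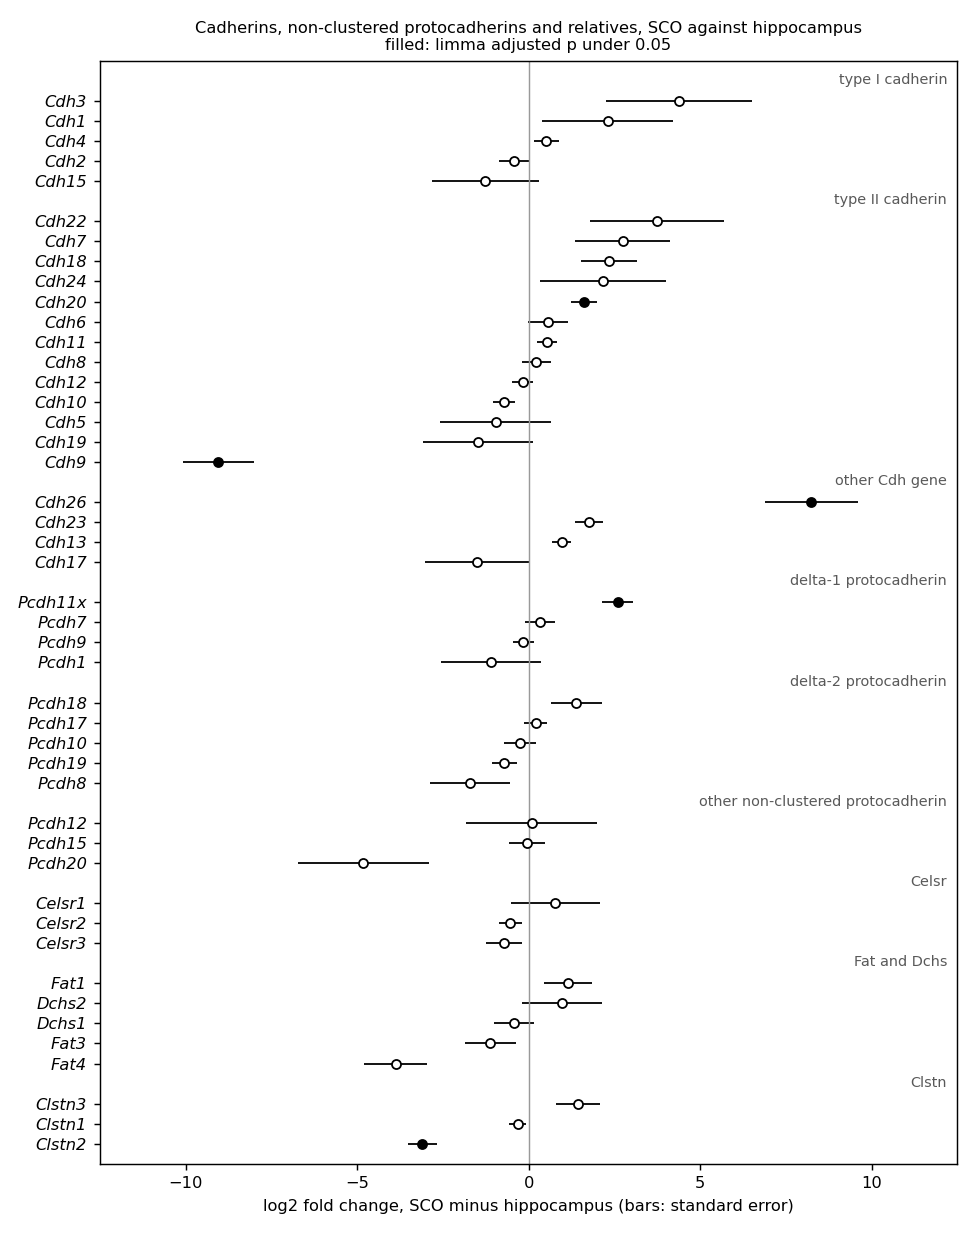
Log2 fold changes, SCO minus hippocampus, of the 45 tested members outside the protocadherin clusters, with bars of 1 standard error, grouped by class. Filled points have a limma adjusted p under 0.05: Cdh20, Cdh26 and Pcdh11x to the right and Cdh9 and Clstn2 to the left.

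Of the 12 non-clustered protocadherins, Pcdh11x alone was called, by limma, edgeR and DESeq2 alike. Pcdh11x, an X-linked protocadherin of the delta-1 group expressed in brain (chromosome X, 120290259 to 120910619, plus strand), had 2769, 2814, 4287 and 7183 normalized counts in SCO and 1221, 454, 775, 330 and 827 in hippocampus. Every SCO library lay above the highest hippocampus library, and its mean was 5.91 times as high in SCO. The log2 fold change was 2.59 (SE 0.46; adjusted p = 0.0140 by limma). The markers that rose with Cdh26 and Cdh20, those of habenular, thalamic and pretectal neurons included, also rose beside Pcdh11x, and their part was not tested. The call ended when the 2 deepest hippocampus libraries were left out (limma adjusted p = 0.0571) and when SCO replicate 4 and hippocampus replicate 2 were left out together (0.0509), within a range of 1.57e-06 to 0.18 over 21 alternatives.

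The other delta-1 genes, Pcdh1, Pcdh7 and Pcdh9, overlapped between tissues. Pcdh9 averaged 12375 ± 6157 normalized counts in SCO and 13150 ± 3395 in hippocampus (SD, n = 4 and 5), with SCO replicate 4 at 21573 and the other SCO libraries at 8572 to 9932. Pcdh7 averaged 3001 ± 1486 in SCO and 2377 ± 1117 in hippocampus. In the delta-2 group none of 5 genes was called by limma, edgeR or DESeq2, and none had an unadjusted p under 0.05. Pcdh18 had 3011, 8182, 3482 and 2121 in SCO and 2564, 213, 2069, 1885 and 2506 in hippocampus (log2 fold change 1.39 with an SE of 0.73; adjusted p = 0.406 by limma), the low value of hippocampus replicate 2 standing apart. Pcdh8 had a log2 fold change of -1.72 (SE 1.17), Pcdh17 one of 0.20, Pcdh10 one of -0.25, and Pcdh19, the gene of a human epilepsy, one of -0.71.

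Pcdh20 differed widely between libraries, with 195, 0, 1028 and 2178 normalized counts in SCO and 8805, 725, 4995, 5242 and 6880 in hippocampus. Hippocampus replicate 2 lay within the SCO range, and the log2 fold change of -4.82 (SE 1.91) had a limma adjusted p of 0.250. Pcdh15, the partner of Cdh23 in tip links, averaged 2164 ± 1432 in SCO and 1878 ± 661 in hippocampus (SD, n = 4 and 5; log2 fold change -0.05). However, gene models inside its span held up to 4.76% to 35.3% of its counts in SCO and 12.9% to 75.2% in hippocampus. These shares are upper limits, since some of the models overlap each other and their counts were added. Pcdh12, an endothelial protocadherin, was at 296 in SCO replicate 3 and 0 in the other SCO libraries, against 0 to 34.7 in hippocampus.

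In the Celsr, Fat, Dchs and Clstn group 1 of 11 tested genes was called. Clstn2, a calsyntenin of the postsynaptic membrane (chromosome 9, 97444395 to 98033181, minus strand), had 634, 341, 566 and 1338 normalized counts in SCO, against 6526, 3188, 5419, 5700 and 7404 in hippocampus. The tissues were well apart, the highest SCO library lying below the lowest of hippocampus. It fell by 3.09 on the log2 scale (SE 0.41; adjusted p = 0.00299 by limma), with a mean 7.85 times as high in hippocampus, and it fell along with the excitatory neuron markers and 4 of the 10 interneuron markers, whose part was not tested. The related Clstn1 averaged 3031 ± 689 in SCO and 3754 ± 635 in hippocampus (SD, n = 4 and 5; log2 fold change -0.32; adjusted p = 0.594 by limma). Clstn3 had 1828, 5373, 8053 and 7562 in SCO and 2452, 442, 2564, 3705 and 1973 in hippocampus. The fitted log2 difference of Clstn3 was 1.44 (SE 0.64; adjusted p = 0.316 by limma), opposite in sign to that of Clstn2, and SCO replicate 1 lay within the hippocampus range.

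Fat4, the receptor for the Dachsous cadherin Dchs1, was just outside the threshold. It had 413, 204, 133 and 8.95 normalized counts in SCO, against 1612, 1405, 1524, 1302 and 1774 in hippocampus, with no overlap and a mean 8.02 times as high in hippocampus (log2 fold change -3.88 with an SE of 0.92; adjusted p = 0.0514 by limma). The SCO values spread far more than those of hippocampus, and without SCO replicate 4 or SCO replicate 1 the gene was called, with adjusted p-values of 0.00102 to 0.213 over 21 alternatives. Its ligand Dchs1 had 1056, 362, 855 and 499 in SCO and 2150, 395, 597, 1554 and 558 in hippocampus (log2 fold change -0.42 with an SE of 0.59), with all but 1 of the SCO values inside the hippocampus range. Both rows overlap in part with genes on the opposite strand, C230034O21Rik for Fat4 and Gm15645 for Dchs1, which held 1 to 797 and 2676 to 14138 reads per library. Neither Fat1 nor Fat3 was called, at log2 fold changes of 1.14 (SE 0.70) for Fat1 and -1.12 (SE 0.75) for Fat3. Dchs2 stayed at or below 24.1 in every library, and Fat2 had 1 read in SCO and 8 in hippocampus. The Celsr genes, atypical cadherins of planar polarity and axon guidance, gave no call: Celsr2 averaged 1132 ± 170 in SCO and 1697 ± 536 in hippocampus (SD, n = 4 and 5), Celsr3 199 ± 74.0 and 323 ± 110, and Celsr1 178 ± 151 and 150 ± 172, in the same order.

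No clustered protocadherin was called among 56 tested. At an unadjusted p under 0.05 there were 3, all in the beta cluster (Pcdhb3, Pcdhb5 and Pcdhb14), edgeR called 0 and DESeq2 called 1, Pcdhb3. The alpha and gamma rows do not measure single isoforms. Ordered from 5′ to 3′ along chromosome 18 (alpha from 36930184 to 37187661, gamma from 37661793 to 37841873, plus strand), the counts of 14 alpha genes and of 22 gamma genes (the pseudogene Pcdhgb8 included) never rose from a gene to the next, in 117 of 117 and 189 of 189 steps over the libraries. In the annotation each span runs on to the shared constant exons at the 3′ end, so a row holds the reads of all genes downstream of its start. Pcdha11 is the name of 2 rows.

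**Figure D4:**
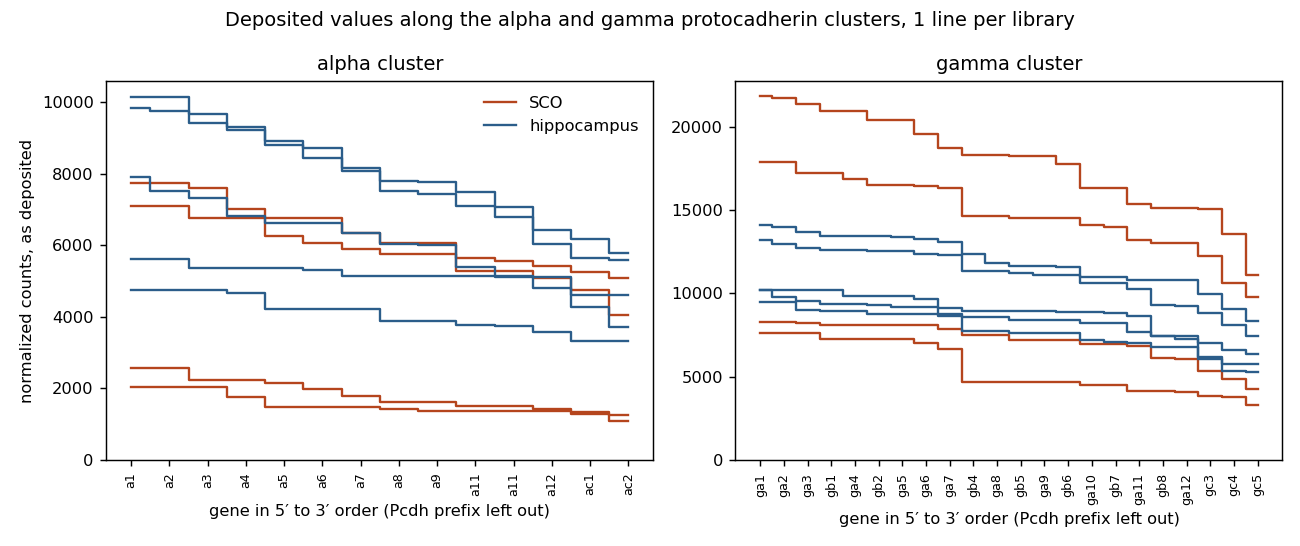
Normalized counts as deposited for 14 alpha (left) and 22 gamma (right) protocadherin genes in 5′ to 3′ order, 1 line per library, 4 of SCO and 5 of hippocampus. Every line falls or stays level from left to right, and lines of the tissues cross or interleave in both panels.

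The first row of each cluster therefore stands for the cluster as a whole. Pcdha1 had 2572, 2050, 7098 and 7743 normalized counts in SCO and 7927, 4764, 10145, 9848 and 5620 in hippocampus, with SCO replicates 1 and 2 below all hippocampus libraries and the other SCO libraries within their range (log2 fold change -0.83 with an SE of 0.44; adjusted p = 0.413 by limma). Pcdhga1 had 7623, 21832, 17907 and 8286 in SCO and 10222, 9509, 13187, 14114 and 10194 in hippocampus (0.15, SE 0.33; adjusted p = 0.846 by limma), with 2 SCO libraries above and 2 below every hippocampus library. SCO replicate 2 was thus lowest of all libraries for the alpha cluster and highest for the gamma cluster. The last row, Pcdhac2 or Pcdhgc5, which includes the constant exons, made up 49.2% to 65.6% of the alpha counts in SCO and 56.9% to 69.7% in hippocampus. For gamma these shares were 43.6% to 54.6% in SCO and 51.4% to 63.1% in hippocampus.

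Taking each row minus the next gave the reads between one start and the next. Of the 35 alpha and gamma members none was called on these values, and none had an unadjusted p under 0.05. The stretches switched between libraries of 1 tissue: among 13 alpha stretches, 1 to 7 had no read in an SCO library and 0 to 5 in a hippocampus library, and among 21 gamma stretches 2 to 7 and 1 to 7, in the same order. Pcdha1 alone had 0 reads in all 4 SCO libraries, against 407, 0, 0, 98.7 and 1.14 normalized counts in hippocampus. The C-type isoforms, which neurons are known to use apart from the stochastic choice, varied as well. The Pcdhac1 stretch had 13.4, 241, 714 and 170 in SCO and 0, 0, 399, 37.7 and 561 in hippocampus. The Pcdhgc4 stretch, nearest to the threshold of these, had 448, 2485, 827 and 616 in SCO and 61.2, 34.7, 752, 646 and 256 in hippocampus (log2 fold change 2.16 with an SE of 0.98; adjusted p = 0.327 by limma). The Pcdhgc3 stretch had 82.1, 1469, 1665 and 501 in SCO and 848, 281, 897, 714 and 401 in hippocampus.

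**Figure D5:**
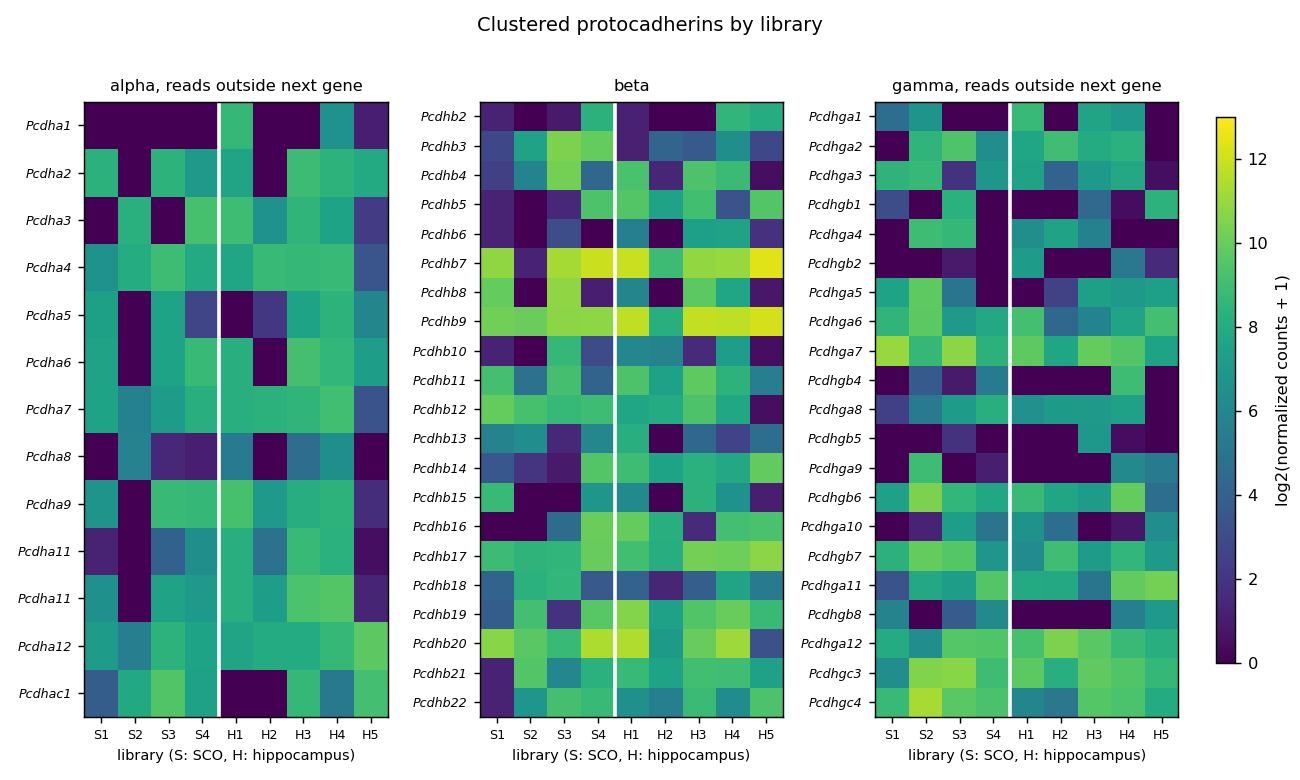
Log2(normalized counts + 1) of clustered protocadherins in each library, SCO (S1 to S4) left of the white line and hippocampus (H1 to H5) right of it. Alpha and gamma panels show reads outside the next gene, without the last gene of each cluster, and the beta panel shows the 21 beta rows. Dark cells at 0 occur in both tissues and change from library to library.

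The 21 beta genes, most of them single-exon genes with no constant exon, have separate spans except Pcdhb21 and Pcdhb22, which overlap. They are similar in sequence, and the treatment of reads that match several genes is unstated in the labels, so single beta values are uncertain. Of the 21, 8, 9, 12 and 14 reached 100 normalized counts in SCO replicates 1 to 4, and 13, 11, 15, 17 and 10 in hippocampus replicates 1 to 5. Under 10 normalized counts lay 9, 9, 7 and 3 in SCO and 2, 7, 3, 2 and 8 in hippocampus. Their summed counts were 8212, 4867, 11866 and 15568 in SCO and 16849, 2747, 13831, 13540 and 15393 in hippocampus. The lowest sum was that of hippocampus replicate 2, below every SCO library. Per kilobase of gene span, the highest means were those of Pcdhb7 and Pcdhb9, at 590 ± 475 and 466 ± 122 normalized counts per kilobase in SCO (SD, n = 4) and 765 ± 528 and 1002 ± 527 in hippocampus (SD, n = 5). The library's top beta gene was Pcdhb7 or Pcdhb9 in all 9 libraries, with 20.4% to 25.9% of the beta sum in SCO and 17.3% to 34.0% in hippocampus.

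Pcdhb9 had 1185, 1026, 1729 and 1748 normalized counts in SCO and 3473, 291, 3545, 3485 and 4517 in hippocampus. All hippocampus libraries but replicate 2 lay above all SCO libraries, and the log2 fold change of -0.69 (SE 0.74; adjusted p = 0.659 by limma) became -1.43 with an adjusted p of 0.0176 without that library (0.0176 to 0.950 over 21 alternatives). Pcdhb14 had 10.4, 2.95, 0.913 and 747 in SCO and 507, 188, 311, 229 and 943 in hippocampus. Here SCO replicate 4 was the exception (log2 fold change -4.52 with an SE of 1.56; adjusted p = 0.176 by limma), and without it the value was -6.37 with an adjusted p of 0.00949 (0.00949 to 0.793 over 21 alternatives). Pcdhb5 had 1.49, 0, 1.83 and 656 in SCO and 730, 182, 525, 9.14 and 730 in hippocampus. Pcdhb3 had 5.97, 176, 1374 and 959 in SCO and 1.25, 18.2, 11.3, 87.0 and 6.09 in hippocampus (log2 fold change 3.98 with an SE of 1.66; adjusted p = 0.279 by limma). SCO replicate 1 alone kept its ranges from parting, and the authors' deposited table gives it a log2 fold change of 4.66 with an adjusted p of 0.00444.

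The partners of these proteins were compared from lists of textbook members. Over all 28150 genes limma called 3.05%, with 1.71% higher and 1.34% lower in SCO, and 4354 had an unadjusted p under 0.05. Of all genes edgeR called 709 and DESeq2 2737. Of 13 catenins and other cytoplasmic partners of cadherins, limma called 0, with 5 at an unadjusted p under 0.05, edgeR called 1 and DESeq2 5. Ctnnb1, beta-catenin, averaged 17116 ± 4897 normalized counts in SCO and 16440 ± 5531 in hippocampus (SD, n = 4 and 5), a log2 fold change of 0.08. Of 18 planar cell polarity and Fat-Dachsous partners, 2 fell and 0 rose by limma, with 6 at an unadjusted p under 0.05. In this list edgeR called 2 and DESeq2 called 4. Its median log2 fold change was 0.44, beside -0.04 over all genes, so the 2 that fell do not stand for the list. Lix1, a homologue of the fly gene lowfat, which acts on Fat and Dachsous in Drosophila, had 1358, 588, 2063 and 1688 in SCO and 11591, 3856, 14163, 9145 and 9861 in hippocampus (log2 fold change -2.79 with an SE of 0.45; adjusted p = 0.0089 by limma). Prickle2, a core planar polarity protein also found at synapses, had 1040, 695, 506 and 440 in SCO and 2268, 2311, 2214, 1594 and 2400 in hippocampus (-1.75, SE 0.34; adjusted p = 0.0217 by limma). Neither overlapped between the tissues. Of 16 chromatin regulators of the protocadherin clusters, such as Ctcf and cohesin, limma, edgeR and DESeq2 each called 0, with 3 at an unadjusted p under 0.05 in limma, and Ctcf averaged 1734 ± 493 in SCO and 1553 ± 745 in hippocampus (SD, n = 4 and 5).

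Cadherin-repeat genes outside the naming pattern added 2 that rose by limma, of 7 tested, beside 1.71% of all genes. In this list edgeR called 1 and DESeq2 called 4, beside 709 and 2737 of all genes. Cdhr4 had 278, 815, 1482 and 172 normalized counts in SCO and 1.25, 0, 1.03, 0 and 0 in hippocampus (log2 fold change 8.50 with an SE of 1.02; adjusted p = 0.00161 by limma). Cdhr3, known in human airway ciliated cells as a rhinovirus receptor, had 2502, 5173, 2308 and 3939 in SCO and 124, 4.95, 2.06, 0 and 761 in hippocampus (7.54, SE 1.74; adjusted p = 0.0452 by limma). Both rose along with the motile cilia markers, whose part was not tested. Cdhr4, like Cdh26, was near 0 in every hippocampus library, whereas Cdhr3 reached 761 in hippocampus replicate 5.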

How the data were processed

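RNA was sequenced from 4 SCO and 5 hippocampus samples at P0. Per the labels' protocols, total RNA was taken with the RNeasy Micro Kit and libraries were made with the TruePrep DNA Library Prep Kit V2. FastQC, HISAT, HISAT2, featureCounts, DESeq2 and the build GRCm38 are named, per the submitters' processing notes. Neither versions, annotation and strand setting nor the treatment of multiply matching reads were stated (not given in the sources used here). Values were deposited by the authors as a normalized signal, each gene's reads scaled by 1 size factor for each library. Per the file headers, the authors' own comparison gives log2 fold changes and standard errors, a score (the test statistic), p-values and adjusted p-values. A size factor scales all genes of a library alike, so a library of different make-up can shift as a whole.

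Dividing by the value of 1 read gave whole reads for 100% of values (tolerance 1e-06), and the recovered counts per library sum to 35379988 to 151009954. Limma-trend (limma 3.58.1, R 4.3.3) was run on log2(value + 1) for the 28150 genes averaging at least 1 in SCO or in hippocampus, with no covariate and Benjamini-Hochberg adjustment over all of them. Fold changes understate low genes. Alternatives were edgeR 4.0.16 and DESeq2 1.42.0 on recovered reads (edgeR calling 709 genes and DESeq2 2737), other scaling, pseudocounts and filters, and left-out libraries. The fit without reads of nested genes, which were taken off cadherin superfamily rows only, was chosen after seeing the data. Tests were also run on simulated data with the same dispersion for every gene. That run does not show how the tests behave for members that vary more widely between libraries. Spans come from GENCODE M21 (GRCm38). The members, lists and tests were chosen with earlier results of these data known.

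Named genes were the called members, the 2 with the highest mean in each class, all Celsr, Fat, Dchs and Clstn genes, the C-type isoforms, members at 0 in a tissue and called pathway genes; further members were named after their values were seen. Without molecular identifiers reads are not independent molecules, so every interval or bound is for counting error alone.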

Additional observations from a re-analysis of the deposited data

Results flagged for a closer look

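In groups of 4 or 5 libraries, 1 value was marked where its gap to the nearest other exceeded Dixon's 95% critical value for the group. Of 113 groups checked, 20 held such a value. A single value above 0 in a group otherwise at 0 is always marked, so the nominal rate of about 1 in 20 does not hold for these counts. In SCO, replicate 1 stood high for Cdh5 (306 normalized counts, the others 2.95 to 4.48), Cdh24 (349, the others at most 25.7) and Fat2 (1.49, the others 0). SCO replicate 2 stood high for Cdh1 (1014, the others at most 5.97) and low for Cdh15 (2.95, the others 186 to 209). SCO replicate 3 was alone above 0 for Pcdh12 (296) and Cdh19 (0.913). SCO replicate 4 was alone above 0 for Cdh9 (17.9) and high for Pcdh9 (21573, the others 8572 to 9932).

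In hippocampus, replicate 1 was alone above 0 for Cdh26 (1.25) and Cdh17 (187). Hippocampus replicate 2 stood high for Cdh15 (1123), Cdh24 (21.5) and Pcdh15 (3026, the others 1407 to 1823), and low for Pcdhb9 (291, the others 3473 to 4517) and Pcdh18 (213, the others 1885 to 2564). Replicate 3 stood high for Cdh6 (2361, the others 760 to 1070). Replicate 4, the deepest, stood high for Cdh22 (83.7, the others at most 3.30), Cdh19 (274, the others at most 0.381) and Dchs2 (24.1, the others at most 1.25). Several of these genes, among them Cdh1, Cdh5, Cdh17, Cdh19 and Cdh24, were near 0 in most libraries of the same tissue.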

How the results depend on the processing

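Over 101 tested members and 21 alternatives, 2063 of 2101 member values stayed on their side of the threshold, 19 lost their call, 19 gained one, and no called value changed sign; 141 uncalled values did. Cdh26, Pcdh11x, Cdh9 and Clstn2 stayed called with any 1 library left out, and Cdh20 did not. With DESeq2, 2737 genes, 7 members higher and 3 lower were called, with 5 Cdh genes and 1 clustered protocadherin higher and 2 Celsr, Fat, Dchs and Clstn genes lower, Fat4 being added. Fat4 also made this last count 2 with TMM scaling, with a pseudocount of 5 and with a mean of at least 10 over all libraries. TMM scaling and no filter on low values each left 1 Cdh gene higher. With SCO replicate 4 and hippocampus replicate 2 left out together, 1 member was higher and 5 lower: 1 Cdh gene and 0 non-clustered protocadherins higher, 2 clustered protocadherins and 2 genes of the Celsr, Fat, Dchs and Clstn group lower. Without the 2 deepest hippocampus libraries, 449 genes were called, with 0 members higher (0 Cdh genes, 0 non-clustered protocadherins) and 2 lower. The cause of these shifts was not tested.

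With 1 library left out at a time, 498 (without hippocampus replicate 3) to 1077 (without hippocampus replicate 2) genes were called, 564 without SCO replicate 3 and 565 without hippocampus replicate 1. Members higher numbered 2 to 4 and members lower 2 to 4, the most lower being without SCO replicate 4. Cdh genes higher numbered 1 to 3, clustered protocadherins lower 0 to 1, and Celsr, Fat, Dchs and Clstn genes lower 1 to 2. The labels do not say whether the replicate numbers of the titles mark animals. The titles also carry other numbers in brackets, which would match the samples differently and are not explained either. The correlations and the block given next used the replicate numbers only. Deviations of same-numbered libraries correlated at 0.00384, -0.025, 0.0207 and -0.0318, and no SCO library correlated best with the hippocampus library of its number. So few pairs cannot settle whether same-numbered samples share an animal. With the replicate number as a block, 1 gene and 0 members were called in either direction. Depth limits the genes near 0, where 1 read was worth 0.366 to 1.65 normalized counts.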
